A study of Arabidopsis thaliana with 24 samples.

Results

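The small RNA of 4 genes of the male flower parts was followed in Arabidopsis inflorescences: the pollen pectin methylesterase genes VGD1 (AT2G47040), VGDH1 (AT2G47030) and PPME1 (AT1G69940), and the anther gene ATA20 (AT3G15400). They were chosen by gene identifier for their known place of expression, by a rule that sets no threshold on a measured value, although earlier results of these data were known. Of these 4 genes, 3 had an entry in the authors' deposited table, which lists 14888 loci in all, and PPME1 had none.

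Pectin methylesterases take methyl groups off the pectin of the cell wall, which changes how stiff the wall is, and pollen tubes depend on them at the growing tip. VGD1 is required for normal tube growth through the style and the transmitting tract, VGDH1 is its closest homologue, and PPME1 shapes the growing tube. ATA20 is a gene of anthers that codes for a protein with repeats. Short RNAs that match such genes can be siRNAs, which Dicer enzymes cut from double-stranded RNA, or fragments of decaying mRNA.

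The labels describe 24 small RNA libraries in 8 groups of 3, all in the Col-0 ecotype. Besides wild-type plants (Col-0) there are 4 single mutants, which carry urt1-1, heso1-4, rrp4-2 or ski2-5. One double mutant, heso1-4/urt1-1, carries both mutations in its name. The remaining groups combine rrp4-2 and urt1-1 with another mutation, as rrp4-2/urt1-1/dcl2CRISPR or as rrp4-2/urt1-1/heso1-4. The series' design text writes the double mutant as heso1-1/urt1-1. URT1 and HESO1 add nucleotides to RNA 3′ ends, RRP4 is a subunit of the RNA exosome, SKI2 is a helicase that delivers RNA to the cytoplasmic exosome, and DCL2 is a Dicer. The study's title places its question in the production of secondary siRNAs.

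The authors' deposited table compares 13 mutant lines with a reference it does not name, taken here to be Col-0. Of these lines 5 match a label by name: urt1-1, ski2-5, rrp4-2, then heso1-4/urt1-1, and also rrp4-2/urt1-1/heso1-4. Which of rrp4urt1dcl2.B9 and rrp4urt1dcl2het is the labelled dcl2CRISPR group was not settled, nor whether GKheso1 is heso1-4. What the ending het stands for was not settled either. No label names ski2urt1dcl2.107, ski2urt1dcl2.123, ski2.2, urt1.2 or heso1.3, and their genotypes are known by these names only. Single libraries were not analysed here, and the depth behind each value is unknown. As a check on the line names, small RNA of URT1 itself was lower in all 7 lines named for a urt1 mutation other than urt1.2, by log2 fold changes from -1.74 to -0.81 in the authors' deposited table, and URT1 was not listed in urt1.2. The gene HESO1 was higher in GKheso1 at 4.60, in rrp4-2/urt1-1/heso1-4 at 1.14 and in heso1-4/urt1-1 at 0.99, in the authors' deposited table, while heso1.3 has no entry for it. DCL2 was lower in rrp4urt1dcl2het, at -0.77 in the authors' deposited table, while rrp4urt1dcl2.B9 and both ski2urt1dcl2 lines have no entry for it.

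The tissue is whole inflorescence, so fewer cells of a type and less RNA per cell cannot be told apart in any value below. The values count small RNA and not mRNA, and read lengths are not among them.

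VGD1 and VGDH1 lie in tandem on the minus strand of chromosome 2, 1368 bases apart. In the RefSeq annotation of TAIR10.1, VGD1 spans chr2:19327853-19330197 and VGDH1 spans chr2:19324134-19326484, each with 2 coding exons. PPME1 lies at chr1:26343275-26345058 on the minus strand with 5 coding exons. ATA20 lies at chr3:5201622-5203197 on the plus strand with 1 coding exon. The deposited table names loci without coordinates, so these positions are those of the annotation.

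A short read can only be assigned to one gene where its sequence is found in no other. Cut into windows of 21 bases, the coding sequence of VGD1 has 1768 windows, of which 425 (24.0%) also occur elsewhere in the genome, and all 425 occur in VGDH1. The coding sequence of VGDH1 has 1747 windows, of which 431 (24.7%) occur elsewhere, 425 of them in VGD1. Both coding sequences are identical at 92.0% of their aligned bases. The longest identical run, of 74 bases, is in capitals in the lines that follow, with 30 bases on either side, read from the RefSeq TAIR10.1 genome. It is shown because reads from inside it cannot be assigned to VGD1 or VGDH1 by sequence.
VGD1, coding bases 1549 to 1682: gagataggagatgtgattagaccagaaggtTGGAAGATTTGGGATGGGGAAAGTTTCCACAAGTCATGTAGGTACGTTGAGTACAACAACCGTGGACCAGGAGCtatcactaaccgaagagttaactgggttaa
VGDH1, coding bases 1528 to 1661: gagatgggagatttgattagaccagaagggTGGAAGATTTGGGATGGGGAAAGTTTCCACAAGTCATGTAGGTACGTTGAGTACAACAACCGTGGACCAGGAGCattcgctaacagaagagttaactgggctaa

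PPME1 is closest to PME48 (AT5G07410), another pectin methylesterase gene of pollen, on chromosome 5. Of the 1066 windows of PPME1, 485 (45.5%) occur elsewhere in the genome and 483 (45.3%) occur in PME48. Their coding sequences are identical at 96.6% of aligned bases, against 70.4% between VGD1 and PPME1. The longest identical run of PPME1 and PME48, of 89 bases, is shown in capitals, since PPME1 has no entry in the deposited table while PME48 has. How the authors' counting treated reads that match 2 genes is not given in the sources used here.
PPME1, coding bases 610 to 758: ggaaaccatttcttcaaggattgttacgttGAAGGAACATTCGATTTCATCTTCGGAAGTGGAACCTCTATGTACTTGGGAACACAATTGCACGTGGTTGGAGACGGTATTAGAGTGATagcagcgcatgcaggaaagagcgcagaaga
PME48, coding bases 610 to 758: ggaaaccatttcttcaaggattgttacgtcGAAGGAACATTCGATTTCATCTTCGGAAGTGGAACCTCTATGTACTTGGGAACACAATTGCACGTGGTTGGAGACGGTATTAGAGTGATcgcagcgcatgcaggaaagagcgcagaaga

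**Figure D1:**
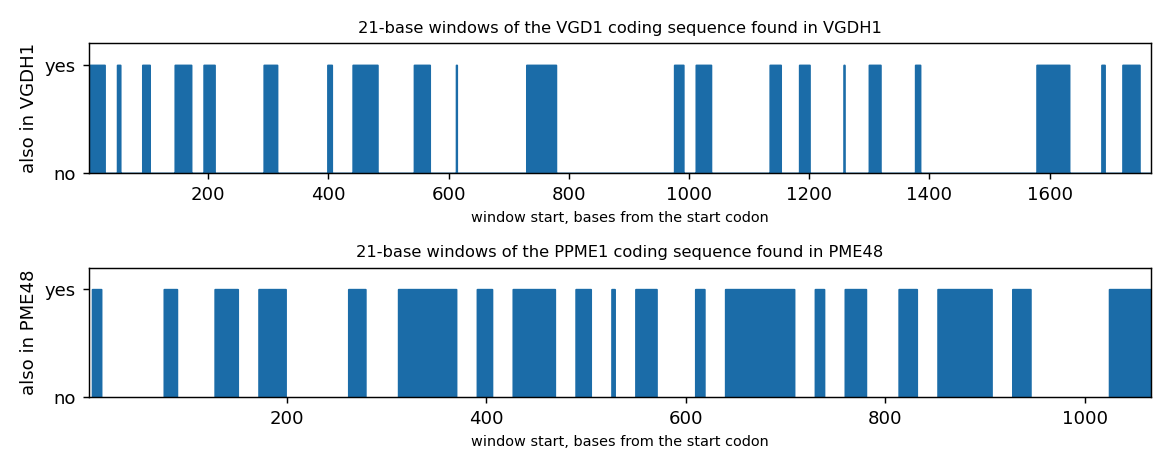
Windows of 21 bases of the VGD1 coding sequence that also occur in VGDH1 (top, 425 of 1768) and of the PPME1 coding sequence that also occur in PME48 (bottom, 483 of 1066). The x axis is the window's first base counted from the start codon, and a filled bar marks a shared window. Shared windows are spread along both coding sequences rather than lying in 1 block.

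The coding sequence of ATA20 differs from the pectin methylesterases in this respect. None of its 1231 windows occurs elsewhere in the genome, while 268 (21.8%) occur more than once inside the gene itself. The stretch shown holds 4 copies of a run of 21 bases, in capitals, spaced 54 bases apart. A read from this stretch belongs to ATA20 but not to 1 position in it.
ATA20, coding bases 291 to 473: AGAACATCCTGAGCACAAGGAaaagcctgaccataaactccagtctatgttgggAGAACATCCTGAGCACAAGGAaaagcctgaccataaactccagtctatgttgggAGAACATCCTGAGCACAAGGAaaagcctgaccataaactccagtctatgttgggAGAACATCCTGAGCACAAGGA

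The authors' mean normalised count of a locus, over the libraries of their fit, was 396 for ATA20, 64.2 for VGD1 and 35.2 for VGDH1 in the authors' deposited table. Per kilobase of exon this is 252 for ATA20, 28.4 for VGD1 and 15.5 for VGDH1. The order of levels was thus the same per locus and per length, with ATA20 far above both pectin methylesterase genes.

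Small RNA of these genes was lower than in Col-0 wherever it was listed. VGD1 fell in 6 of 13 lines, ATA20 in the same 6 lines and VGDH1 in 1, and none of the 3 was higher in any line. A gene counts as fallen in a line where the authors' adjusted p from DESeq2 was under 0.05, the threshold of the authors' deposited table. These p-values come from the authors' fit, whose design is not given in the sources used here. For the lines that match no label by name, the number of samples behind them is not known.

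VGD1, the pollen tube growth gene, fell most in ski2-5, to 0.246 of the Col-0 level. Its log2 fold change there was -2.02 ± 0.30 (SE) in the authors' deposited table, with a DESeq2 adjusted p of 2.02e-08. VGD1 stood at rank 33 of the 97 lower protein-coding loci of ski2-5, whose median was -1.75. In ski2urt1dcl2.107 VGD1 was at -1.22 ± 0.31, with an adjusted p of 0.00285 in the authors' deposited table. The median of the lower protein-coding loci of ski2urt1dcl2.107 was -1.31. Both are lines named for ski2 mutations in which VGD1 was listed, and ski2.2 and ski2urt1dcl2.123 did not list it. In the lines that carry rrp4 mutations the values lay close together. VGD1 was at -1.06 ± 0.26 in rrp4urt1dcl2het (adjusted p 0.000496), and at -0.85 ± 0.26 in rrp4urt1dcl2.B9 (adjusted p 0.0171), in the authors' deposited table. It was at -0.85 ± 0.25 in rrp4-2 (adjusted p 0.0188) and at -0.82 ± 0.26 in rrp4-2/urt1-1/heso1-4 (adjusted p 0.0186), again in the authors' deposited table. All 4 listed rrp4 lines thus kept between 0.479 and 0.567 of the Col-0 level. The median of the lower protein-coding loci was -0.83 in rrp4urt1dcl2het, -0.89 in rrp4urt1dcl2.B9, -0.84 in rrp4-2 and -0.94 in rrp4-2/urt1-1/heso1-4.

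VGD1 was not listed in ski2.2, urt1-1, urt1.2, GKheso1, heso1.3, heso1-4/urt1-1 and ski2urt1dcl2.123. From its standard errors and the largest p listed in each line, a log2 fold change of 0.85 to 0.98 in either direction would have been needed for a call there. A change as large as in ski2-5 is above that limit, while one as large as in rrp4-2 is under it. The deposited table holds 50.9% to 82.8% of the ranks up to its last rank in each line, so the lack of an entry does not show that a gene kept its Col-0 level.

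VGDH1, the tandem homologue, was listed in ski2-5 alone. Its log2 fold change there was -1.45 ± 0.35, with an adjusted p of 0.00576 in the authors' deposited table, or 0.366 of the Col-0 level. In the other 12 lines the change needed for a call was 0.91 to 1.303, which is above the size of the VGD1 change in rrp4-2, rrp4urt1dcl2.B9 and rrp4-2/urt1-1/heso1-4. In the other 2 lines that list VGD1 but not VGDH1 it was below it, at 0.91 against a VGD1 change of -1.06 in rrp4urt1dcl2het and 1.06 against -1.22 in ski2urt1dcl2.107. VGD1 and VGDH1 share 425 windows, so their values may not be independent, and no difference between them was tested.

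ATA20, the anther gene, fell most in 2 of the 3 lines that combine rrp4 with further mutations. It was at -2.58 ± 0.25 in rrp4urt1dcl2het (adjusted p 1.59e-22) in the authors' deposited table, which is 0.167 of the Col-0 level. Only 4 of the 1733 lower protein-coding loci of that line had a more negative value, ATA20 standing at rank 5. In rrp4-2/urt1-1/heso1-4 it was at -2.32 ± 0.25 (adjusted p 1.06e-17) in the authors' deposited table, which is rank 37 of 440. In ski2-5 it was at -1.75 ± 0.25 (adjusted p 3.34e-09) in the authors' deposited table, close to the median of -1.75 over the 97 lower protein-coding loci there.

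Smaller falls of ATA20 were listed in 3 lines. ATA20 was at -1.31 ± 0.24 in rrp4-2 (adjusted p 7.83e-06) and at -1.27 ± 0.25 in rrp4urt1dcl2.B9 (adjusted p 1.35e-05), in the authors' deposited table. It was at -0.94 ± 0.28 in ski2urt1dcl2.107 (adjusted p 0.0179) in the authors' deposited table, where the median of the lower protein-coding loci was -1.31. The 7 lines that did not list ATA20 are those that did not list VGD1, and a change of 0.81 to 0.94 would have been needed there.

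**Figure D2:**
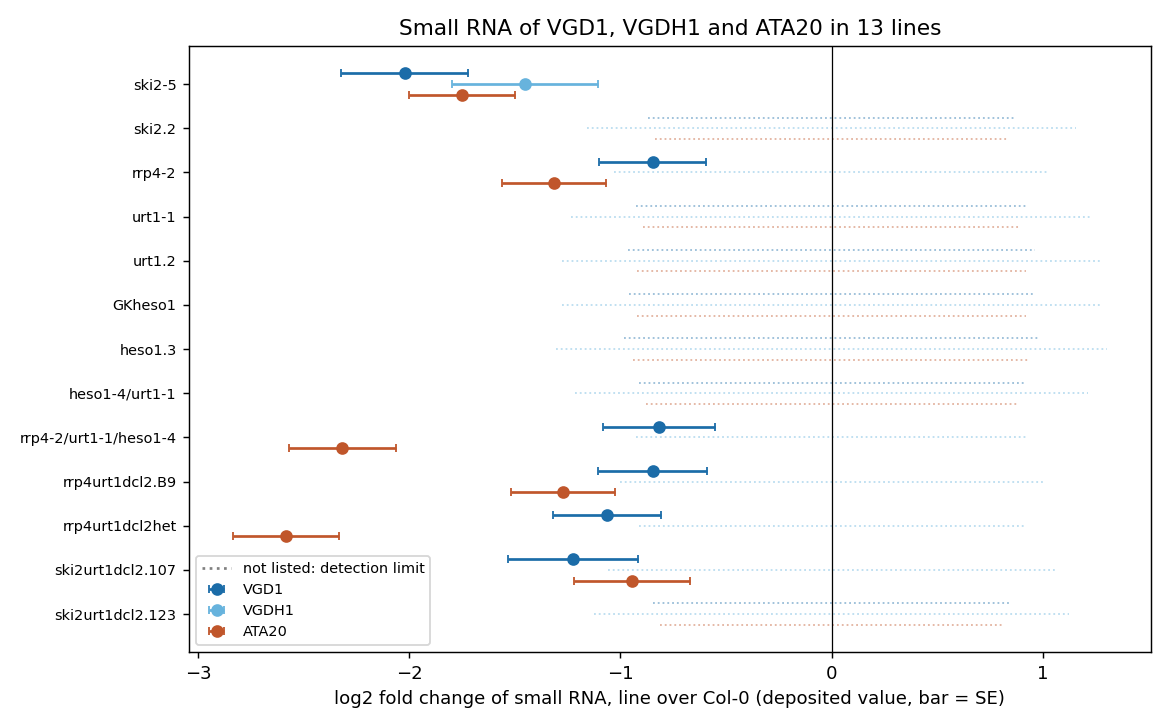
Log2 fold change of small RNA against Col-0 (x axis) for VGD1, VGDH1 and ATA20 in each of 13 mutant lines (y axis), with points for deposited values and bars for the recovered standard error. Dotted lines span the range within which a gene that is not listed could lie without a call. VGD1 is lowest in ski2-5 at -2.02 and ATA20 is lowest in rrp4urt1dcl2het at -2.58, and no point lies above 0.

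These counts stand against the share of tested loci listed as lower in each line. Here and below, such shares and numbers count listed loci only, as do the counts of members. The listing holds 50.9% to 82.8% of the ranks up to its last rank in each line. The share of tested loci past the threshold may therefore be larger than the share given. In ski2-5, 3 of the 4 genes were listed as lower, against 0.261% of all tested loci. The share was 2 of 4 in each of 5 lines, against a background of 1.01% in rrp4-2, 1.21% in rrp4urt1dcl2.B9, 1.46% in ski2urt1dcl2.107, 4.54% in rrp4urt1dcl2het and 5.08% in rrp4-2/urt1-1/heso1-4. No member was listed in ski2.2 (0.308%), heso1-4/urt1-1 (0.241%), GKheso1 (0.155%), urt1-1 (0.111%), urt1.2 (0.102%), heso1.3 (0.0935%) or ski2urt1dcl2.123 (0.728%). The tested loci include many with few reads, which can pass the threshold less easily than these genes.

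The threshold decides part of these counts. At an adjusted p under 0.01, 1 of the 4 genes was left in each of rrp4-2, rrp4-2/urt1-1/heso1-4, rrp4urt1dcl2.B9 and ski2urt1dcl2.107. The gene left was ATA20 in the first 3 of these lines and VGD1 in ski2urt1dcl2.107.

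Whether a gene fell by different amounts in 2 lines was tested by subtracting the log2 fold changes and dividing by their joint error (two-sided z test), with Benjamini-Hochberg adjustment over all loci listed in both lines. VGD1 and ATA20 were listed in both lines of 9 pairs, which gave 18 tests, and 5 passed at 0.05. The share of all loci in a pair that passed the same test was 23.4% for ski2-5 minus rrp4-2, 18.9% for rrp4-2/urt1-1/heso1-4 minus rrp4-2, 5.11% for rrp4urt1dcl2het minus rrp4-2 and 3.1% for rrp4urt1dcl2.B9 minus rrp4-2. Within the rrp4 combinations it was 9.64% for rrp4urt1dcl2.B9 minus rrp4-2/urt1-1/heso1-4, 11.4% for rrp4urt1dcl2het minus rrp4-2/urt1-1/heso1-4 and 6.41% for rrp4urt1dcl2het minus rrp4urt1dcl2.B9. For ski2urt1dcl2.107 it was 5.26% against ski2-5 and 20.4% against rrp4urt1dcl2.B9. Both lines of each pair were compared with the same reference, which this test leaves out. The loci of a pair are those past the threshold in both lines, so small changes are not among them.

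ATA20 was further down in 2 of the rrp4 combinations than in rrp4-2 alone. The difference was -1.003 ± 0.35 (SE) between rrp4-2/urt1-1/heso1-4 and rrp4-2, with an adjusted p of 0.027. Between rrp4urt1dcl2het and rrp4-2 it was -1.27 ± 0.35, with an adjusted p of 0.00772. The lines rrp4urt1dcl2het and rrp4-2/urt1-1/heso1-4 themselves differed by -0.27, with a 95% interval from -0.97 to 0.43 and an adjusted p of 0.765.

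The line rrp4urt1dcl2.B9 stood apart from both. ATA20 was 1.04 ± 0.35 higher on the log2 scale there than in rrp4-2/urt1-1/heso1-4 (adjusted p 0.0343), and the difference of rrp4urt1dcl2het minus rrp4urt1dcl2.B9 was -1.31 ± 0.35 (adjusted p 0.00438). Against rrp4-2 alone the difference of rrp4urt1dcl2.B9 was 0.04, with an interval from -0.64 to 0.72 and an adjusted p of 0.998. Both lines named for rrp4, urt1 and dcl2 thus lie at opposite ends of the ATA20 values of the 4 rrp4 lines.

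VGD1 showed no such spread among the rrp4 lines. Its 6 differences between them ran from -0.25 to 0.03, and none passed the test. The interval between rrp4-2/urt1-1/heso1-4 and rrp4-2, from -0.69 to 0.75, includes 0. The ATA20 interval of the same pair, from -1.69 to -0.31, overlaps it. No test set one gene against the other.

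Between ski2-5 and rrp4-2 the VGD1 difference passed and the ATA20 difference did not, while both were negative. Their intervals overlap, that of VGD1 running from -1.95 to -0.40, and the 2 genes were not tested against each other. VGD1 was further down in ski2-5, by a difference of -1.18 ± 0.39 with an adjusted p of 0.0179, in a pair where 23.4% of loci passed. The median of the lower protein-coding loci was also further down in ski2-5, at -1.75 against -0.84 in rrp4-2. ATA20 differed by -0.44, with an interval from -1.12 to 0.25 and an adjusted p of 0.455. In ski2urt1dcl2.107 both genes were less far down than in ski2-5, by 0.80 each, and neither difference passed, with adjusted p of 0.313 for VGD1 and 0.193 for ATA20. Between ski2urt1dcl2.107 and rrp4urt1dcl2.B9 the differences were -0.38 for VGD1 and 0.33 for ATA20, and neither passed, with adjusted p of 0.665 and 0.687.

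**Figure D3:**
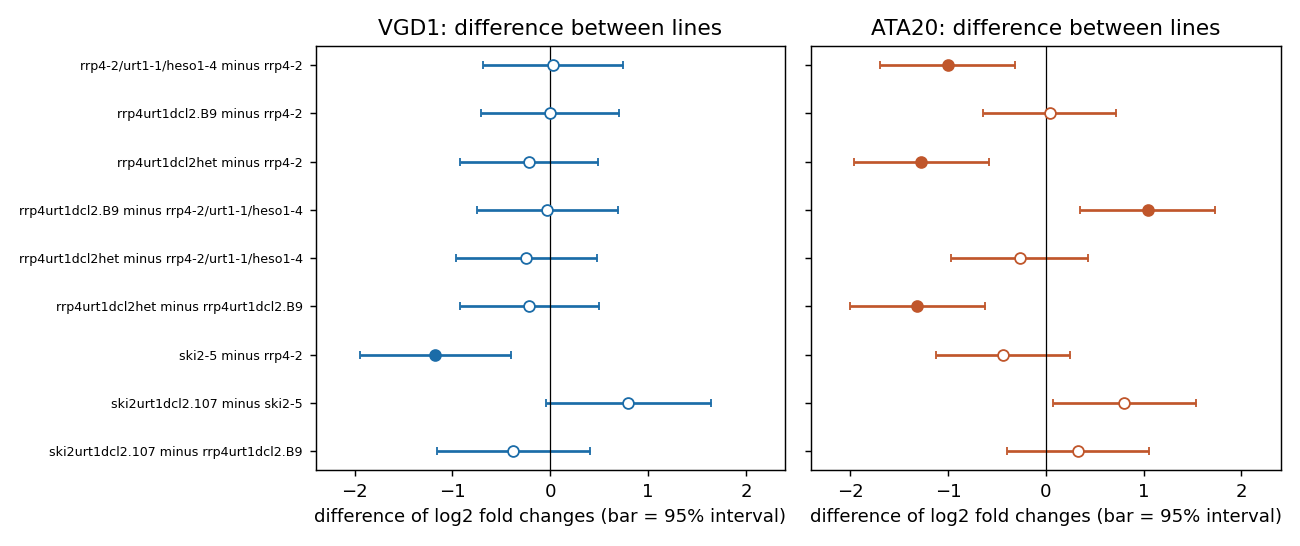
Difference of the log2 fold changes between 2 lines (x axis) for VGD1 (left) and ATA20 (right) in 9 pairs of lines (y axis), with bars for the 95% interval. Filled points passed the two-sided z test at an adjusted p under 0.05. For ATA20 4 pairs passed, all among the rrp4 lines, and for VGD1 only ski2-5 minus rrp4-2, at -1.18, passed.

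Other genes of the anther were read from a list of 47 genes of tapetum and anther wall, the cell layers that feed developing pollen and make its coat. Of these, 25 were listed in at least 1 line, with 61 entries lower and 7 higher. In ski2-5, 8 were lower and 0 higher, against 0.261% of all tested loci lower. The 8 had a median of -2.47 in the authors' deposited table, against -1.75 over all lower protein-coding loci of ski2-5. The pollen coat genes led. GRP17, which codes for an oleosin-like coat protein, was at -3.03, GRP16 at -2.56, and GRP19 and GRP20 both at -2.37, in the authors' deposited table. EXL4 and EXL6, extracellular lipase genes of the pollen coat, were at -2.62 and -2.61 in the authors' deposited table.

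In rrp4-2, 11 of the 47 were lower and 0 higher, against 1.01% of all tested loci lower. The 11 had a median of -1.13 in the authors' deposited table. These were led by ATA7 at -1.79, LTP12, a lipid transfer protein gene, at -1.39, EXL4 at -1.37 and GRP17 at -1.27, in the authors' deposited table. KNS4, which acts in making the pollen wall, was at -1.13 and RPG1, a sugar transporter gene, at -1.06 in the authors' deposited table. At an adjusted p under 0.01, 1 of these 11 was left.

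Among the rrp4 combinations, 14 of the 47 were lower and 2 higher in rrp4-2/urt1-1/heso1-4, where 5.08% of all tested loci were lower. In rrp4urt1dcl2het 20 were lower and 1 higher, against 4.54% of all tested loci lower. In rrp4urt1dcl2.B9, 8 were lower and 1 higher, against 1.21%, which is fewer than the 11 of rrp4-2, against 1.01%. In the authors' deposited table A9, a tapetum gene with a low mean normalised count of 12.0, was at -3.01 ± 0.73 in rrp4-2/urt1-1/heso1-4. A6, which codes for a glucanase-like protein of the tapetum, was at -2.08 there, at -1.28 in rrp4urt1dcl2.B9 and at -1.89 in rrp4urt1dcl2het, in the authors' deposited table. In rrp4urt1dcl2het EXL4 was at -2.27, GRP17 and GRP16 were both at -2.25 and ATA27, a tapetum gene for a glucosidase-like protein, was at -1.95 in the authors' deposited table. At an adjusted p under 0.01 the count of lower genes in rrp4-2/urt1-1/heso1-4 was 7.

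The few higher entries were of other genes. DRL1, a reductase gene of pollen wall synthesis, was higher in 4 lines, from 0.84 to 1.82 in the authors' deposited table, among them ski2urt1dcl2.107 at 1.69 and ski2urt1dcl2.123 at 1.103. ACOS5, an acyl-CoA synthetase gene of the same pathway, was at 1.18 in ski2urt1dcl2.107 in the authors' deposited table. EXL1 was at 1.80 in rrp4urt1dcl2.B9 in the authors' deposited table. TPD1, which codes for a secreted signal that specifies the tapetum, was higher in rrp4-2/urt1-1/heso1-4, and the authors' deposited table gives 1.03. Over all tested loci, 4202 of 65641 were higher in rrp4-2/urt1-1/heso1-4, 6136 of 63565 in rrp4urt1dcl2het and 3263 of 63565 in rrp4urt1dcl2.B9. In ski2urt1dcl2.107 it was 942 of 55265, and in ski2urt1dcl2.123 it was 547 of 63565. No gene of the list was lower in ski2urt1dcl2.107, although VGD1 and ATA20 were. None of the 47 was listed in ski2.2, urt1-1, urt1.2, GKheso1, heso1.3 or heso1-4/urt1-1.

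**Figure D4:**
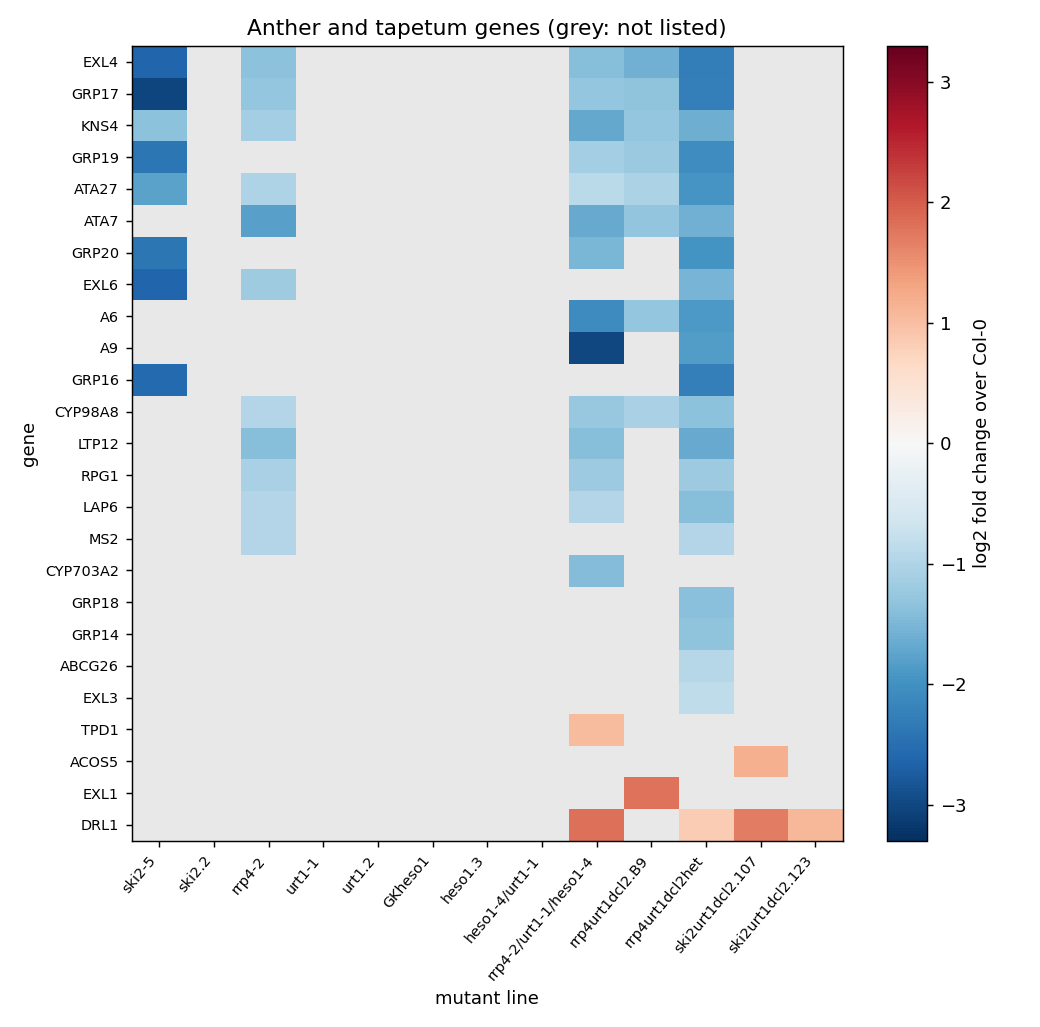
Log2 fold change against Col-0 (colour) of the 25 anther and tapetum genes listed in at least 1 line (y axis) in 13 mutant lines (x axis), from the authors' deposited table. Grey cells were not listed. Lower values (blue) stand in ski2-5 and the 4 rrp4 lines, with GRP17 at -3.03 in ski2-5, and DRL1 is higher (red) in 4 lines.

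Pectin genes of pollen moved in both directions. Of 16 such genes other than the members, 7 were listed in at least 1 line, with 12 entries lower and 12 higher. Over all tested loci, the share listed as lower was 0.155% in GKheso1, 0.261% in ski2-5, 1.01% in rrp4-2 and 1.21% in rrp4urt1dcl2.B9. It was 4.54% in rrp4urt1dcl2het and 5.08% in rrp4-2/urt1-1/heso1-4. VGDH2 (AT3G62170), the second homologue of VGD1, fell in 5 lines, from -1.66 in ski2-5 to -0.80 in rrp4-2 in the authors' deposited table, and these are 5 of the 6 lines in which VGD1 fell. VGDH2 shares 1.14% of its windows with other places in the genome, and its coding sequence is identical to VGD1 at 76.4% of aligned bases. PGA4, a polygalacturonase gene, was at -1.85 in ski2-5 and -1.15 in rrp4urt1dcl2het in the authors' deposited table. QRT3, which codes for a polygalacturonase that frees pollen grains from the tetrad, was at -0.84 in rrp4-2 and -1.11 in rrp4urt1dcl2het in the authors' deposited table.

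The pectin methylesterase gene PME49 went the other way. It was higher in 7 lines, from 1.18 in ski2urt1dcl2.123 to 1.91 in rrp4urt1dcl2.B9 in the authors' deposited table. PME48, the near copy of PPME1, was higher in 5 lines, from 0.47 to 0.90 in the authors' deposited table. Over all tested loci, 321 of 32432 were higher in ski2.2, 217 of 67717 in urt1-1 and 2191 of 63565 in rrp4-2. The numbers were 4202 of 65641 in rrp4-2/urt1-1/heso1-4, 3263 of 63565 in rrp4urt1dcl2.B9 and 6136 of 63565 in rrp4urt1dcl2het. In ski2urt1dcl2.107 it was 942 of 55265, and in ski2urt1dcl2.123 it was 547 of 63565. Reads of PPME1 and PME48 could be shared, and their part in the PME48 value was not tested. PME50, which lies beside PME49 on chromosome 5, was lower in GKheso1 only, at -1.20 in the authors' deposited table. VGDH2, PGA4, QRT3, TPD1, HAP2, AHA6, the floral organ genes and the smallest values of PME48 and DRL1 were singled out after their values were seen.

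A further list held 39 genes of pollen and pollen tubes. Of these, 7 were listed in at least 1 line, with 9 entries lower and 2 higher. Over all tested loci, the share listed as lower was 0.261% in ski2-5, 1.46% in ski2urt1dcl2.107 and 0.728% in ski2urt1dcl2.123. It was 4.54% in rrp4urt1dcl2het and 5.08% in rrp4-2/urt1-1/heso1-4. HAP2, which sperm cells need to fuse, was at -1.61 and AHA6, a proton pump gene of pollen, at -1.33 in ski2-5 in the authors' deposited table. AHA8, another proton pump gene, was at -1.45 in ski2urt1dcl2.107 and at -1.38 in ski2urt1dcl2.123 in the authors' deposited table. Both higher entries were of MGH3, a histone H3 gene of the male germ line, at 3.22 in rrp4-2/urt1-1/heso1-4 and 2.29 in rrp4urt1dcl2het in the authors' deposited table. Over all tested loci, 4202 of 65641 were higher in rrp4-2/urt1-1/heso1-4 and 6136 of 63565 in rrp4urt1dcl2het. MGH3 has a mean normalised count of 6.38 in the authors' deposited table, and 5.84% of its windows occur elsewhere in the genome.

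**Figure D5:**
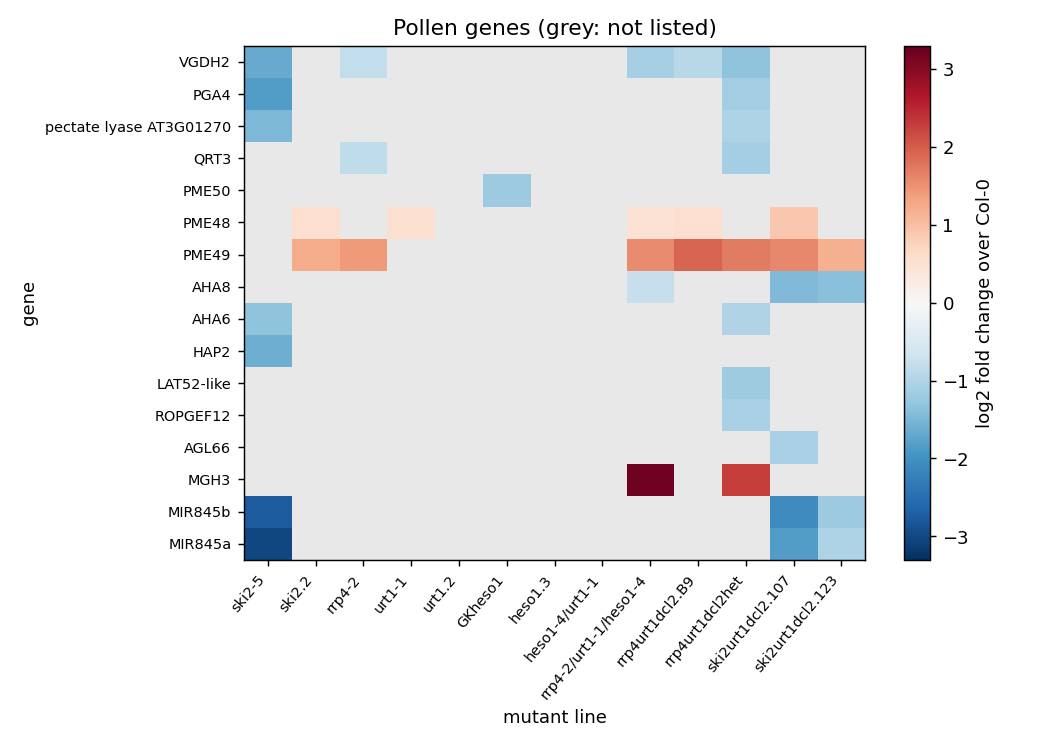
Log2 fold change against Col-0 (colour) of the pollen pectin genes, pollen and pollen tube genes and pollen microRNA genes listed in at least 1 line (y axis) in 13 mutant lines (x axis), from the authors' deposited table. Grey cells were not listed. VGDH2 is lower in 5 lines while PME49 is higher in 7, and MIR845a and MIR845b are lower in ski2-5, ski2urt1dcl2.107 and ski2urt1dcl2.123.

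Beside these lists, 12 floral organ genes were read in the same way. Their small RNA does not measure how much of an organ was present. Of these, 4 were listed in any line, each at a change of under 1. Over all tested loci, 1.01% were lower in rrp4-2 and 4.54% in rrp4urt1dcl2het. Listed as higher were 2191 of 63565 tested loci in rrp4-2 and 3263 of 63565 in rrp4urt1dcl2.B9. PI, a gene of petal and stamen identity, was at -0.71 in rrp4-2 and -0.89 in rrp4urt1dcl2het, and AP3, its partner, at -0.78 in rrp4urt1dcl2het in the authors' deposited table. SHP1, a carpel gene, was at 0.74 in rrp4-2 and 0.68 in rrp4urt1dcl2.B9, where SEP1 was at 0.83, in the authors' deposited table. The lines ski2-5 and ski2urt1dcl2.107 listed none of the 12, which does not show that these genes were unchanged. The change needed for a call was not worked out for them. Whether the number of anther cells differed between lines was not tested.

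The genes next to the members were also read. AT2G47020 lies 1626 bases past the 3′ end of VGDH1 and overlaps the microRNA gene MIR408. AT2G47020 was higher in 12 lines, from 1.049 to 2.31 in the authors' deposited table. MIR408 itself ranged from 1.06 to 2.33 in the authors' deposited table. Their mean normalised counts were 3544 and 3508 in the authors' deposited table, so the AT2G47020 value is not separate from that of MIR408. The other neighbours, AT2G47050, SHW1, AT1G69950, AT3G15395 and AT3G15410, were listed in no line.

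Among 40 loci listed in all 6 lines that list VGD1, the one with the most similar values was CYS2 (AT2G31980), a cystatin gene. Its mean absolute difference from VGD1 was 0.363 on the log2 scale over the 6 lines, and it ranged from -2.09 to -1.01 in the authors' deposited table. Next came the microRNA gene MIR5020b at 0.481, the transposable elements AT4TE10720 at 0.488 and AT2TE06875 at 0.628, and then ATA20 at 0.744. CYS2 was also nearest to ATA20, at 0.432. All of these loci were lower in all 6 lines. The similarity is a description of 6 lines that share their reference, with no test. Lines that do not list VGD1 were left out of it. Some of these loci were lower there too, as in GKheso1, with AT4TE10720 at -0.95 and AT2TE06875 at -0.73 in the authors' deposited table. CYS2 was at -0.90 in ski2urt1dcl2.123 in the authors' deposited table.

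The sequence before each transcript start was searched for 3 short motifs on both strands, since VGD1 and ATA20 fell in the same 6 lines. The motif AGAAA is known from a pollen promoter of tomato, GTGA from a pollen promoter of tobacco, and CANNTG is the E-box bound by transcription factors of the tapetum. The 250 bases before VGD1, VGDH1 and ATA20 are given with AGAAA, or TTTCT where it lies on the other strand, in capitals. They were read from the RefSeq TAIR10.1 genome in the direction of the gene.
VGD1, chr2:19330198-19330447, minus strand: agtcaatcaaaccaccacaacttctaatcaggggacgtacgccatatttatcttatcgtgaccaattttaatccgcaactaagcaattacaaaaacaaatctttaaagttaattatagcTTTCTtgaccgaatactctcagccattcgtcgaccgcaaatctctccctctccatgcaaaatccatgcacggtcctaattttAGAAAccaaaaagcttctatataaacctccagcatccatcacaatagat
VGDH1, chr2:19326485-19326734, minus strand: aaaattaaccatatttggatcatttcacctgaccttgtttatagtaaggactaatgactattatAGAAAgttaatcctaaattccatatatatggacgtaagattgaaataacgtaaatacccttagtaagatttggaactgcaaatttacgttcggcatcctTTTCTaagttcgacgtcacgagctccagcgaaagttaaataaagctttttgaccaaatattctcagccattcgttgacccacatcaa
ATA20, chr3:5201372-5201621, plus strand: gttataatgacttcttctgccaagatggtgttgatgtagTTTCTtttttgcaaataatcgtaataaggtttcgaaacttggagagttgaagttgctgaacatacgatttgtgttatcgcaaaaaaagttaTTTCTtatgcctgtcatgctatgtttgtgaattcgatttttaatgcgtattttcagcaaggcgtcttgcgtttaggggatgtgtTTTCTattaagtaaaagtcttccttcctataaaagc

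AGAAA occurs 2 times before VGD1, 2 times before VGDH1, 1 time before PPME1 and 3 times before ATA20. It occurs in 82.5% of the 27443 protein-coding promoters of this length, and 29.0% hold 3 or more. GTGA occurs before all 4 genes and in 77.5% of promoters. CANNTG occurs 1 time each before VGDH1 and PPME1, not before VGD1 or ATA20, and in 55.3% of promoters. Aligned end to end, the windows before VGD1 and VGDH1 are identical at 59.4% of aligned bases, against 92.0% in the coding sequence. The run tctcagccattcgt lies near the middle of the VGD1 window but near the end of the VGDH1 window. The windows, set by the annotated gene starts, are thus out of register. The 59.4% is therefore not a measure of how far the 2 promoters differ.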

How the data were processed

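Small RNA libraries of inflorescences were made and sequenced by the authors. Per the submitters' processing notes, cutadapt 2.4, STAR 2.6.0a, featureCounts (Subread 1.6.3) and DESeq2 were used with TAIR10; parameters, strand setting and the treatment of reads that match several genes are not given in the sources used here. The authors' deposited table gives, per the file headers, a signal per locus (the mean normalised count), a log2 fold change, a p-value and an adjusted p-value. Every listed locus has an adjusted p under 0.05, but not every locus past that threshold is listed.

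The members and gene lists were chosen with earlier results of these data known; the loci of MIR845a and MIR845b were added to their list after the table was read. Calls are the authors' adjusted p under 0.05. Dividing the size of each log2 fold change by the z value of its p-value gave the standard error. Dividing adjusted by unadjusted p gave ranks and the number of tested loci, 32432 to 78096 per line. The change needed for a call in a line that does not list a gene is the z value of the largest p listed in that line, multiplied by the gene's median standard error. Pairs of lines were compared by a two-sided z test (16 pairs planned, 9 with a member in both lines), with Benjamini-Hochberg adjustment over the loci listed in both. The scripts were tested on simulated data. Sequences, gene models and the 250 bases before each gene came from RefSeq TAIR10.1; windows of 21 bases were matched on both strands, and identity was counted over aligned bases without gaps. Python 3.11.15, pandas 2.3.3, NumPy 2.4.6, SciPy 1.17.1 and matplotlib 3.10.9 were used.

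The genes named are the members, up to 8 listed genes per line from the lists by size of change, the neighbours of the members, the 5 loci nearest VGD1 in their changes and the 3 nearest in mean count; others are said to have been chosen after their values were seen. The 5 loci nearest ATA20 were added later. Alternatives were stricter thresholds, a minimum change, Bonferroni adjustment, a correlation between lines, 1 standard error per locus and a minimum mean count of 50.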

Additional observations from a re-analysis of the deposited data

Results flagged for a closer look

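The differences given here passed the test of the difference between lines. The ATA20 change in rrp4-2/urt1-1/heso1-4 was further down than in rrp4-2, at a difference of -1.003 on the log2 scale, in a pair where 18.9% of all loci passed the same test. The change in rrp4urt1dcl2het was further down than in rrp4-2, at -1.27 (5.11% of loci passed), and than in rrp4urt1dcl2.B9, at -1.31 (6.41% passed). In rrp4urt1dcl2.B9 ATA20 was less far down than in rrp4-2/urt1-1/heso1-4, at a difference of 1.04 (9.64% passed). The VGD1 change in ski2-5 was further down than in rrp4-2, at a difference of -1.18, and 23.4% of the loci of that pair passed.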

How the results depend on the processing

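All alternatives used the same deposited log2 fold changes, so no member could reverse its direction. The count of members called in a line fell to 1 in rrp4-2, rrp4-2/urt1-1/heso1-4 and rrp4urt1dcl2.B9 at an adjusted p under 0.01, at 0.001, at a minimum log2 change of 1 and with Bonferroni adjustment. In ski2urt1dcl2.107 it fell to 1 at 0.01 and at a minimum change of 1, and to 0 at 0.001 and with Bonferroni adjustment, which also left 1 in rrp4urt1dcl2het. In ski2-5 the count fell from 3 to 2 at 0.001 and with Bonferroni adjustment. The gene lost there was VGDH1, whose only call was in ski2-5. With a correlation of 0.5 between lines, 7 of the 18 differences passed instead of 5; ski2urt1dcl2.107 minus ski2-5 was added, at 0.80 for ATA20 (adjusted p 0.0143) and 0.80 for VGD1 (adjusted p 0.0434). With 1 standard error per locus, or only loci with a mean count of at least 50, none of the 18 calls changed.

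At an adjusted p under 0.01, the lower anther genes were 1 in rrp4-2 and 7 in rrp4-2/urt1-1/heso1-4, and the higher ones 1 in rrp4-2/urt1-1/heso1-4 and 0 in rrp4urt1dcl2het. The higher floral organ genes were 0 in rrp4-2 and 1 in rrp4urt1dcl2.B9, the lower ones 0 in rrp4-2 and 1 in rrp4urt1dcl2het. The lower pollen and pollen tube genes were 1 in rrp4urt1dcl2het, and the lower pollen microRNA genes 0 in ski2urt1dcl2.123. The higher pectin genes were 0 in ski2.2, urt1-1 and ski2urt1dcl2.123, the lower ones 0 in rrp4-2 and rrp4urt1dcl2.B9. At a minimum log2 change of 1, the higher anther genes were 0 in rrp4urt1dcl2het, and the floral organ genes 0 in both directions in rrp4-2, 0 higher in rrp4urt1dcl2.B9 and 0 lower in rrp4urt1dcl2het. The lower pollen and pollen tube genes were 0 in rrp4-2/urt1-1/heso1-4. The higher pectin genes were 1 in rrp4-2/urt1-1/heso1-4, rrp4urt1dcl2.B9, ski2.2 and ski2urt1dcl2.107 and 0 in urt1-1, the lower ones 0 in rrp4-2 and rrp4urt1dcl2.B9. The cause was a stricter threshold by construction.

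No paired analysis was possible because values per library were not used here, and leaving out replicates was not run for the same reason. The depth of each library is unknown. The listing is partial, so a gene without an entry is not shown to be unchanged, and the change needed for a call holds only for a gene that would have been listed. Reads shared by VGD1 and VGDH1, or by PPME1 and PME48, can move counts between them.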

Other observations

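The microRNA genes MIR845a and MIR845b, known from pollen, where their microRNAs match the primer binding sites of retrotransposons, were lower in ski2-5, at -3.01 ± 0.28 and -2.75 ± 0.33 in the authors' deposited table. In ski2urt1dcl2.107 they were at -1.84 and -2.08, and in ski2urt1dcl2.123 at -1.01 and -1.21, in the authors' deposited table. Neither was listed in the other 10 lines, among them all 4 rrp4 lines in which VGD1 and ATA20 fell, where a change of 0.74 to 1.055 for MIR845a and 0.86 to 1.23 for MIR845b would have been needed over these 10 lines. Between ski2urt1dcl2.123 and ski2-5 the difference passed the z test for both, at 2.00 ± 0.39 for MIR845a (adjusted p 8.41e-06) and 1.54 ± 0.46 for MIR845b (adjusted p 0.0132), in a pair where 6.72% of loci passed. Between ski2urt1dcl2.107 and ski2-5 it did not pass, at 1.17 for MIR845a (adjusted p 0.0648) and 0.67 for MIR845b (adjusted p 0.622). Between ski2urt1dcl2.107 and ski2urt1dcl2.123 it did not pass either, at -0.83 and -0.88 (adjusted p 0.43 and 0.498). Both are far more abundant in small RNA than the members, with mean normalised counts of 2389 and 903 in the authors' deposited table.

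The 3 loci nearest to VGD1 in mean normalised count were the transposable element AT4TE15740, the gene AT3G62630 and the transposable element gene AT3G43640, at 64.2 each in the authors' deposited table. They were higher where listed, in 3, 4 and 2 lines, with AT3G62630 from 1.84 to 2.28 in the authors' deposited table.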
